A study of Mus musculus with 8 samples.

Results

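The 7 genes described here, Cx3cr1, Tmem119, Siglech, Olfml3, Selplg, Slc2a5 and Fcrls, encode surface and secreted proteins that mark homeostatic microglia, the unstimulated state of the resident macrophages of the brain. They were taken by symbol from the 46983 genes of the authors' deposited table, and each symbol had 1 row there. Total RNA was sequenced in 8 libraries of microglia isolated from the corpus callosum, 4 named Qk-KO and 4 named WT. All mice were FvB/C57BL6 hybrids that carried Cx3cr1-CreER, a tamoxifen-inducible Cre recombinase expressed under Cx3cr1, were given tamoxifen at an age of 8 weeks and ate chow with 0.2% cuprizone for 6 weeks. Cuprizone is a copper-binding toxin to which oligodendrocytes are the most sensitive cells, so that white matter loses its myelin. By the labels, Qk-KO mice carried both Qk alleles flanked by loxP sites and WT mice carried 1 flanked allele, so the WT mice also had Cre, tamoxifen and a Qk allele open to deletion. Qk encodes quaking, an RNA-binding protein that acts in splicing and RNA stability.

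The labels contradict each other for 4 of the 8 libraries. The genotype field calls named Qk-KO 1 and 3 WT and named WT 2 and 3 Qk-KO, so libraries are called by their names below and no difference is assigned to a genotype. The labels do not say whether a library came from 1 animal or several, so a p-value here speaks of differences among libraries that might be technical repeats. In RNA of isolated cells taken as a whole, fewer cells of a type and less RNA per cell cannot be told apart.

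Cx3cr1, the fractalkine receptor, was lower in every library named Qk-KO than in any library named WT and was the 1 member called lower in the authors' deposited table at an adjusted p under 0.05, as were 0.671% of the genes with one. Slc2a5, a fructose transporter, also had no overlap between the named groups but did not pass either test. Of all genes tested, 2.79% had no overlap and were lower in named Qk-KO, and 2.92% had none and were higher. The other 5 members, Tmem119, Siglech, Olfml3, Selplg and Fcrls, overlapped between the groups, with differences of -0.11 to -0.040 on the log2 scale.

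As background, homeostatic microglia sense their surroundings through a set of receptors, adhesion molecules and transporters whose expression depends on transforming growth factor beta signalling and on factors such as PU.1, Sall1 and Mef2c. Around damaged myelin, microglia take up debris and switch on phagocytic and lipid genes, and in many disease models they express less of several homeostatic genes. Tmem119, Siglech, Olfml3 and Fcrls are used in mice to tell microglia from blood-derived monocytes and macrophages. Cx3cr1 is shared with monocytes and Selplg with most leukocytes.

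Totals of reads in genes, estimated from the deposited signal, were 43.9 to 58.5 M in named Qk-KO and 59.7 to 69.7 M in named WT libraries, and the 2 ranges did not overlap. Named Qk-KO 3 had the fewest reads, 43.9 M, and named Qk-KO 4 had nearly as few, 44.8 M. Csf1r, P2ry12 and Sall1, microglia markers outside the 7, had mean levels of 5878, 377 and 255 CPM (the authors' mean signal, rescaled so that all genes sum to 1 M). Qk itself was 15.49 ± 0.18 in named Qk-KO and 15.41 ± 0.059 in named WT libraries on the authors' regularized log2 scale (mean ± SD, n = 4 each; limma difference 0.079, adjusted p = 0.813). In named Qk-KO 1 to 4 it was 15.59, 15.40, 15.69 and 15.29. In named WT 1 to 4 it was 15.50, 15.38, 15.41 and 15.37. The highest values were in named Qk-KO 1 and 3, which the genotype field calls WT. The lowest was in named Qk-KO 4, which name and field both call Qk-KO. The next lowest, 15.37, was in named WT 4, which both call WT, and lay below named Qk-KO 2, which both call Qk-KO. Only a value for the whole gene was at hand, with none by exon, and which label is right was not tested with it.

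Mean levels were 1762 CPM for Cx3cr1, 900 CPM for Fcrls, 759 CPM for Olfml3, 677 CPM for Selplg, 390 CPM for Tmem119, 236 CPM for Siglech and 48.7 CPM for Slc2a5. Cx3cr1 ranked 48 and Siglech 618 among all genes by CPM, whereas Slc2a5 ranked 3538. Levels of different genes are comparable only per length. Divided by the length of the annotated transcript with the longest coding sequence, the order was Cx3cr1 at 470 CPM per kb, Fcrls at 396, Selplg at 365, Siglech at 222, Tmem119 at 174, Olfml3 at 139 and Slc2a5 at 15.4 CPM per kb. The top 3 were not separated by their spread: Cx3cr1 stood above Fcrls in 5 of 8 libraries, by 0.20 ± 0.46 on the log2 scale per length, and Fcrls above Selplg in 6 of 8, by 0.11 ± 0.22 (mean ± SD over 8 libraries). Siglech stood above Tmem119 in 8 of 8 libraries, by 0.35 ± 0.27, and Tmem119 above Olfml3 in 8 of 8, by 0.31 ± 0.25. The smallest difference in a library was 0.0 after rounding for the first pair and 0.075 for the second, so neither step was firm. Olfml3 stood above Slc2a5 by 3.21 ± 0.32, the clearest step. The order rests on the annotated transcript, which has a 3′ untranslated region of 13 bases for Siglech and 4178 bases for Olfml3.

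**Figure D1:**
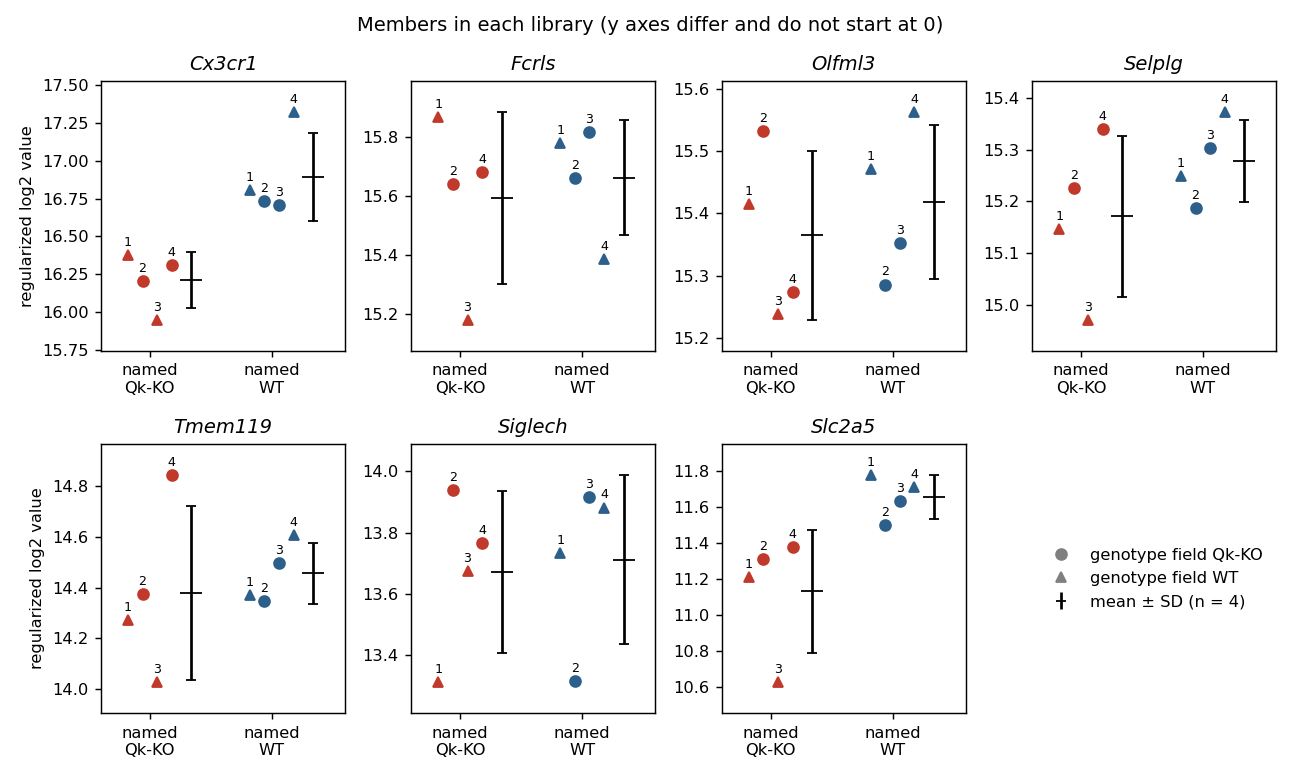
Regularized log2 value (y axis, authors' scale; axes differ and do not start at 0) of each member in the 4 named Qk-KO (red) and 4 named WT (blue) libraries, with replicate numbers, marker shape for the genotype field, and mean ± SD. Cx3cr1 and Slc2a5 have no overlap between the named groups, and named Qk-KO 3 is the lowest library for 6 of the 7 members.

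Cx3cr1 is a G-protein coupled receptor for fractalkine, a chemokine that neurons present on their membrane. The gene lies on chromosome 9 (GRCm38) on the minus strand, where its transcript spans 120048683 to 120068296 in 2 exons. Regularized log2 values of Cx3cr1 were 16.37, 16.21, 15.95 and 16.31 in named Qk-KO 1 to 4, against 16.81, 16.73, 16.71 and 17.32 in named WT 1 to 4. The highest named Qk-KO library lay below the lowest named WT library, and named Qk-KO 3 and named WT 4 were the extremes of the 8. Means were 16.21 ± 0.19 in named Qk-KO and 16.89 ± 0.29 in named WT (SD, n = 4 each). The authors' deposited table gave a log2 fold change of -0.70 (SE 0.15, adjusted p = 0.00170), a level 1.62-fold lower, and this was the 41st smallest adjusted p in it. Of the 14150 genes with an adjusted p there, 0.671% were called lower, and Cx3cr1 was the 1 of 7 members called. Limma on the regularized values gave a nearly equal difference, -0.68 ± 0.15 (SE; 95% interval -1.02 to -0.35), but an adjusted p of 0.323, with an unadjusted p of 0.00125. Limma called 0 members and 1 gene in all (0.00478% of 20942 genes tested). Without named WT 4 the difference was -0.54, and without named Qk-KO 3 it was -0.60.

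The CreER of these mice is expressed under Cx3cr1, and both named groups carried it. The labels do not say which Cx3cr1-CreER line was used, whether it interrupts the endogenous gene or how many copies each mouse had. In the GENCODE M21 annotation the Cx3cr1 gene as a whole reaches from 119901616 to 120069879, and 9 other genes lie within that range. None of them overlaps the exons of the transcript used here, and no other annotated gene overlaps any of the other 6 members.

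The promoter of Cx3cr1 is shown with that of Slc2a5, the other member without overlap, and that of Fcrls, a member with overlap. The windows run from 250 bases before to 50 bases after the start of the gene, 5′ to 3′ on the gene's strand, from RefSeq on GRCm38.p6, at chr9:120068247-120068546 (minus strand), chr4:150119094-150119393 (plus strand) and chr3:87263475-87263774 (minus strand). Capitals mark matches, on either strand, to 4 motifs of factors active in microglia or macrophages: TGTGGT for RUNX, CAGACA for SMAD, GAGGAAG for PU.1 and, for MEF2, CTA and TAG with any 4 bases between them.
Cx3cr1: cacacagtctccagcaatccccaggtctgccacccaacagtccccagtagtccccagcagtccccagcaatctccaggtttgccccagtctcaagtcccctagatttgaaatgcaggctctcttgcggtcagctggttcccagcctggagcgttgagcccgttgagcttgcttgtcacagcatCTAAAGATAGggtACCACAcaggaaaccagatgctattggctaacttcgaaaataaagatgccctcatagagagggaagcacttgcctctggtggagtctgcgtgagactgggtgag
Slc2a5: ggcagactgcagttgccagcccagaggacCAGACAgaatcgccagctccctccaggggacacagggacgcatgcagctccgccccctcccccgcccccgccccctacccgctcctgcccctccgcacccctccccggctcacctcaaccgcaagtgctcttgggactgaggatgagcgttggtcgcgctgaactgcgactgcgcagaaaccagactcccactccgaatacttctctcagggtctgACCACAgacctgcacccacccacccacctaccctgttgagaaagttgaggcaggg
Fcrls: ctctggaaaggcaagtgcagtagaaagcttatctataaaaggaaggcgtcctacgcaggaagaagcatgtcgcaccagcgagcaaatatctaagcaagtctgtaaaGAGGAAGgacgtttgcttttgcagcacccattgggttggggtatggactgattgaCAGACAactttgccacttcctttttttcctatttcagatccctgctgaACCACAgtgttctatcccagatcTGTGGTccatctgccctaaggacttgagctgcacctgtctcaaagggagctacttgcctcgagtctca
RUNX letters occurred in the windows of Cx3cr1 (1 match), Slc2a5 (1), Siglech (1) and Fcrls (2) but not in that of Olfml3, among the 5 members with a window, against 16.8% of all 32851 windows. The loose MEF2 pattern, with any 4 bases allowed between CTA and TAG, occurred once, in Cx3cr1, against 3.69% of all windows. It lies a few bases before the RUNX match. The bases between are AAGA, so a pattern with only A or T there would not have matched. SMAD letters occurred in Slc2a5, Siglech and Fcrls (21.0% of all windows), and PU.1 letters in Fcrls (13.6%). No 2 marked matches overlap each other in the windows printed. No motif was shared by Cx3cr1 and Slc2a5 and missing from the members whose groups overlapped, since the RUNX letters were also in Siglech and Fcrls. Tmem119 and Selplg were not matched to a window. A match is a run of letters and not a measured binding site.

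Slc2a5 encodes GLUT5, a facilitative fructose transporter that in the brain is used as a microglial marker. It lies on chromosome 4, 150119283 to 150144169, plus strand, with 14 exons. Regularized log2 values of Slc2a5 were 11.21, 11.31, 10.63 and 11.38 in named Qk-KO 1 to 4, against 11.78, 11.50, 11.64 and 11.71 in named WT 1 to 4. All 4 named Qk-KO libraries lay below all 4 named WT libraries, with named Qk-KO 3 far below the rest. Means were 11.13 ± 0.34 in named Qk-KO and 11.66 ± 0.12 in named WT (SD, n = 4 each). The authors' deposited table gave a log2 fold change of -0.50 (SE 0.16, adjusted p = 0.0817) and limma -0.52 ± 0.15 (SE; 95% interval -0.88 to -0.17, adjusted p = 0.423, unadjusted p = 0.00815). Without named Qk-KO 3 the limma difference was -0.36. Cx3cr1 and Slc2a5 were 2 of 7 members with groups that did not overlap, both lower in named Qk-KO, where 2.79% of all genes tested had none in that direction and 2.92% had none and were higher, as 0 members were. They were also the 2 members at an unadjusted limma p under 0.05, which 8.59% of genes tested reached in either direction and 4.63% with a lower value in named Qk-KO.

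**Figure D2:**
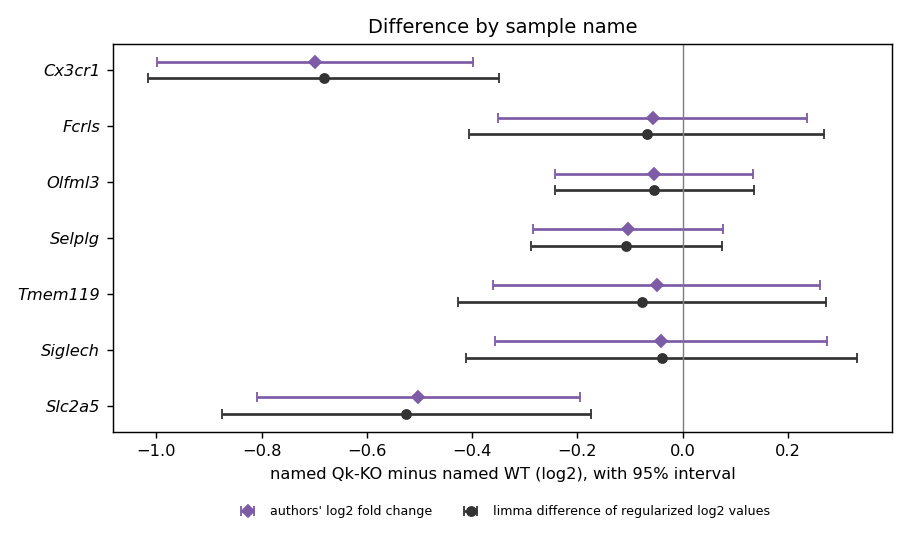
Difference of named Qk-KO minus named WT libraries (x axis, log2) with its 95% interval for each member, from the authors' deposited table (diamonds) and from limma (circles). The intervals of Cx3cr1 and Slc2a5 lie below 0 and those of the other 5 members include 0.

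Tmem119 and Selplg are neighbours on the minus strand of chromosome 5, at 113793729 to 113800516 and 113818536 to 113832644, with 18019 bases and 1 processed pseudogene between them. Tmem119 encodes a transmembrane protein of uncertain function in microglia. Its values were 14.27, 14.37, 14.03 and 14.84 in named Qk-KO 1 to 4, against 14.37, 14.35, 14.50 and 14.61 in named WT 1 to 4. The named Qk-KO libraries held both the lowest and the highest value, and their SD was 0.34, against 0.12 in named WT. The limma difference was -0.077, with a 95% interval of -0.43 to 0.27 (adjusted p = 0.909), and its sign turned without named Qk-KO 3 (0.040). A fall of up to 1.34-fold therefore lies inside the interval.

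Selplg encodes the P-selectin ligand PSGL-1, a mucin that lets leukocytes roll on vessel walls. Its values were 15.15, 15.23, 14.97 and 15.34 in named Qk-KO 1 to 4, against 15.25, 15.19, 15.30 and 15.37 in named WT 1 to 4. The groups overlapped, and the difference was -0.11 (limma 95% interval -0.29 to 0.074, adjusted p = 0.720). Across the 8 libraries Tmem119 and Selplg had the highest correlation of the 21 pairs of members (Pearson r = 0.91, Spearman rho = 0.95, and r = 0.94 after each named group's mean was taken off). The points share their libraries and scaling, and the median r of the 21 pairs was 0.42.

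Siglech and Fcrls are receptors with immunoglobulin domains. Siglech belongs to the family of sialic acid binding lectins, signals through the adaptor Tyrobp and is also made by plasmacytoid dendritic cells in mice. It lies on chromosome 7 (55768178 to 55778925, plus strand). Its values were 13.31, 13.94, 13.67 and 13.77 in named Qk-KO 1 to 4, against 13.73, 13.31, 13.92 and 13.88 in named WT 1 to 4. Both groups spanned nearly the same range, and it was the 1 member for which named Qk-KO 3 was not the lowest library. Its difference was -0.040 (limma 95% interval -0.41 to 0.33, adjusted p = 0.958), and turned positive without named Qk-KO 1 (0.081), named WT 3 (0.029) or named WT 4 (0.017). Of 6 markers of plasmacytoid dendritic cells, Klk1 was listed at 0 and Ly6d and Ccr9 were under 1 CPM. The others, Bst2, Tcf4 and Cox6a2, were at 96.3, 88.2 and 21.0 CPM. The part of such cells in the Siglech level was not tested.

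Fcrls, an Fc receptor-like protein of mice with a scavenger receptor domain, lies on chromosome 3 (87250758 to 87263738, minus strand). Its values were 15.87, 15.64, 15.18 and 15.68 in named Qk-KO 1 to 4, against 15.78, 15.66, 15.82 and 15.39 in named WT 1 to 4. Named Qk-KO 3 was the lowest and named WT 4 the next lowest, while named Qk-KO 1 was the highest. The difference was -0.068 (limma 95% interval -0.41 to 0.27, adjusted p = 0.915), and its sign turned without named Qk-KO 3 (0.068). Fcrls was also the 1 member whose transcript held the letters ACTAAC, a form of the core of the sequence that quaking binds in RNA. Other forms of the core were not searched. The match lies in the 3′ untranslated region, starting at base 2177 of the transcript, and is printed below from the GENCODE M21 transcript with the motif in capitals and T in place of U, to show what such a match looks like in a member whose level overlapped between the groups.
Fcrls: gaagtaactgatACTAACcaaaggattatg
Among 900 genes of at least 10 CPM with a 3′ untranslated region of 0.8 to 1.2 times that length, 8.89% held these letters on the transcript strand. The transcripts of Cx3cr1, Slc2a5 and the other 4 members had none in any region, which says nothing of quaking's action on them.

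Olfml3 is the secreted member, a glycoprotein of the olfactomedin family found in the extracellular matrix. It lies on chromosome 3 (103722222 to 103738001, minus strand). Its values were 15.42, 15.53, 15.24 and 15.27 in named Qk-KO 1 to 4, against 15.47, 15.29, 15.35 and 15.56 in named WT 1 to 4. Its groups overlapped, and its 8 values had the smallest SD of the members, 0.12. The difference was -0.054 (limma 95% interval -0.24 to 0.13, adjusted p = 0.875), so that a fall of more than 1.18-fold lies outside the interval.

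Among genes of at least 10 CPM, the size of the difference by name for Cx3cr1 exceeded that of 99.1% and for Slc2a5 that of 98.4%, whereas the other 5 members lay between the percentiles 27.6 (Siglech) and 63.1 (Selplg). The median difference of the 7 members was -0.077, against -0.0043 over all genes tested, and 7 of 7 were negative, as were 51.2% of all genes tested. Without named Qk-KO 3 the members' median was -0.041 and 5 of 7 were negative. With both named Qk-KO 3 and named WT 4 left out, an alternative added once values had been seen, the median was -0.0091 and 4 of 7 were negative. The differences of Cx3cr1 and Slc2a5 were -0.45 and -0.34 in that setting.

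Named Qk-KO 3 was the lowest of the 8 libraries for 6 of 7 members and lay below the mean of the 8 libraries for all 7, on average by -0.38. It was the lowest library for 18.7% of genes of at least 10 CPM and for 18.1% of all genes tested. In that library the summed level of 8 astrocyte markers was 85.2 CPM, the lowest of the 8. Over the named groups that sum was 85.2 to 503.9 CPM in named Qk-KO and 207.4 to 544.5 CPM in named WT libraries. The sums of 7 mural and fibroblast and 5 erythroid markers were also lowest there, at 8.29 and 119.7 CPM, against ranges of 16.2 to 49.9 CPM and 226.2 to 411.1 CPM in named WT libraries. No marker of these 3 lists was at 0 in the mean over libraries. The sums of 24 other homeostatic microglia genes (23205 CPM), oligodendrocyte markers (125 CPM) and neuron markers (4.87 CPM) were lowest there too. Those of neutrophil, monocyte and border-associated macrophage markers were not. Named WT 4, the highest library for Cx3cr1, Olfml3 and Selplg, had the highest sums of astrocyte markers and of oligodendrocyte markers (310.3 CPM). Named Qk-KO 4 had sums of 503.9 and 264.3 CPM for these lists, the highest of its group, as were its values of Tmem119, Selplg and Slc2a5, whereas its Cx3cr1 value lay within the range of the other named Qk-KO libraries. Named WT 2 had the highest sum of 8 neutrophil markers, 276.6 CPM, against 19.3 to 59.2 CPM in named Qk-KO libraries. The part of other cell types in the members' values was not tested.

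**Figure D3:**
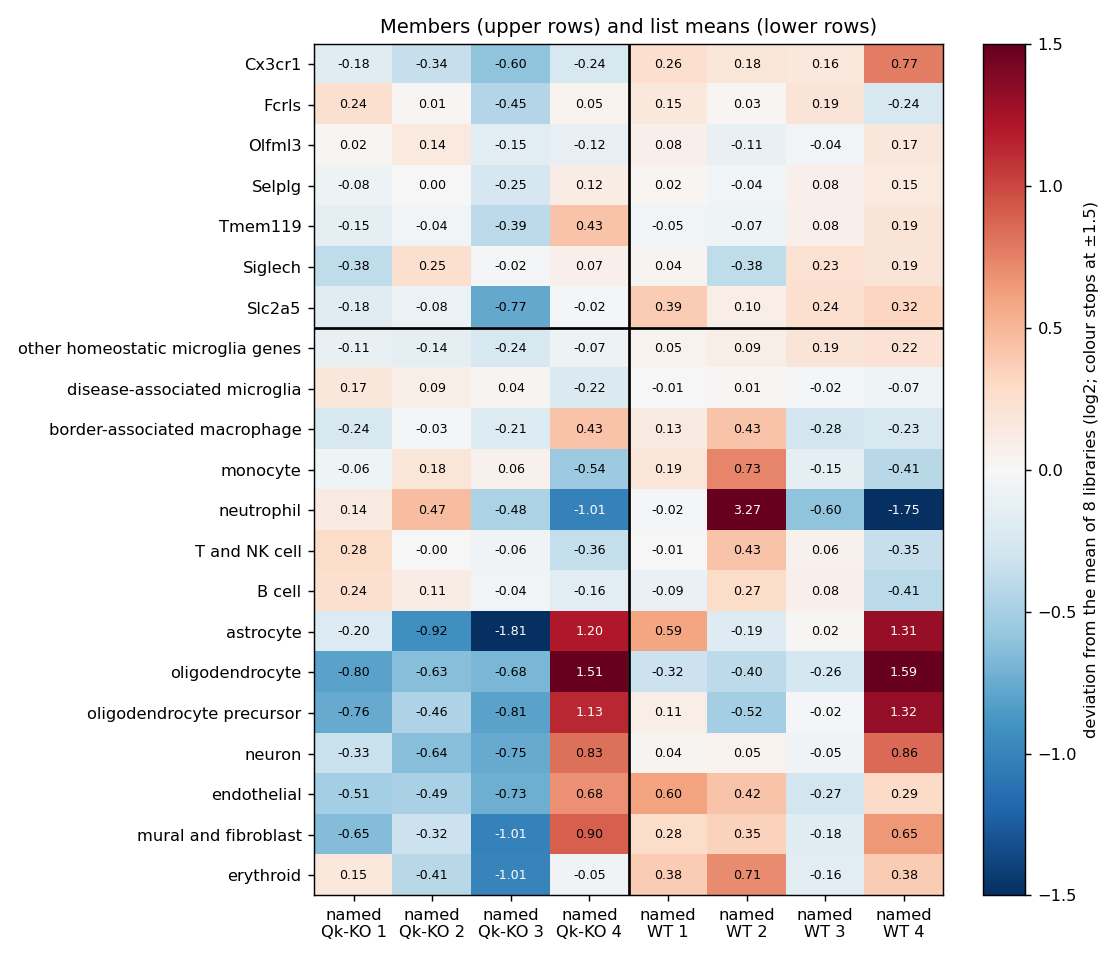
Deviation of each member (upper rows) and of the mean of each fixed gene list (lower rows) from its mean over the 8 libraries (log2, colour and printed value; named Qk-KO libraries left, named WT libraries right). Named Qk-KO 3 is below 0 for all 7 members and lowest for the astrocyte list, at -1.81, whereas Cx3cr1 and Slc2a5 are below 0 in every named Qk-KO library.

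The genotype field gave no member a call. By that field Cx3cr1 was 16.49 ± 0.27 in Qk-KO and 16.61 ± 0.59 in WT libraries (mean ± SD, n = 4 each; limma difference -0.12, adjusted p = 0.9996), and Slc2a5 was 11.46 ± 0.14 in Qk-KO and 11.33 ± 0.53 in WT libraries (limma difference 0.12, adjusted p = 0.9996). Limma called 0% of genes by that field at an adjusted p under 0.05, and 2.64% (553 genes) had an unadjusted p under 0.05. No member had groups without overlap, where 0.902% of genes had none and were lower in the field Qk-KO. Because each combination of name and field holds 2 libraries, the difference by name can be read within each field. Cx3cr1 differed by -0.46 within the field Qk-KO and by -0.90 within the field WT, and Slc2a5 by -0.22 and -0.83. Tmem119 differed by 0.19 and -0.34, Siglech by 0.24 and -0.32, Olfml3 by 0.084 and -0.19, and Selplg by 0.038 and -0.25. Fcrls was nearly the same in both, at -0.077 and -0.060. The interaction of name and field did not pass in limma for any member (adjusted p of 0.421 for Slc2a5 to 0.987 for Fcrls, while 0.0239% of genes tested passed). Named Qk-KO 3 is 1 of the 2 named Qk-KO libraries within the field WT.

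**Figure D4:**
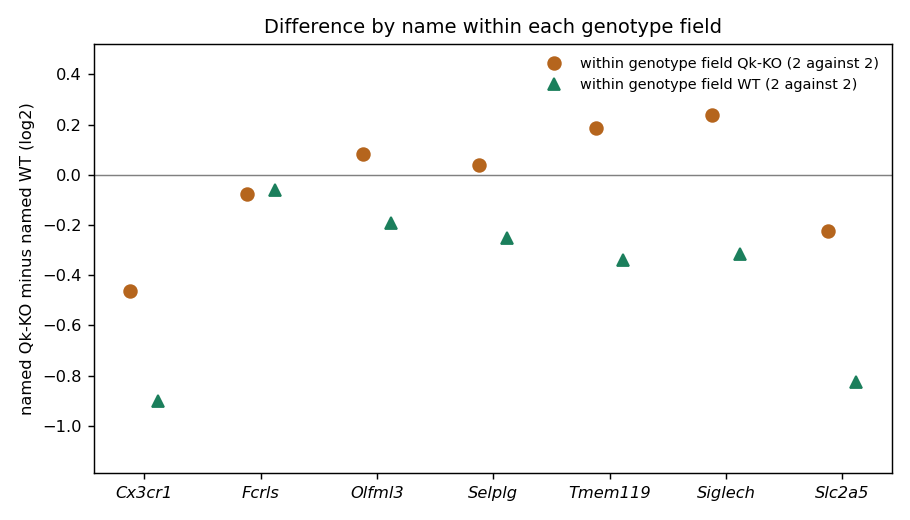
Difference of named Qk-KO minus named WT libraries (y axis, log2) for each member within libraries of genotype field Qk-KO (circles) and of genotype field WT (triangles), 2 against 2 libraries each, with no test. Cx3cr1 and Slc2a5 are below 0 in both, and 4 of the other 5 members have opposite signs.

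Of 24 other homeostatic microglia genes, 6 had an adjusted p under 0.05 in the authors' deposited table and each was lower in named Qk-KO, against 0.671% of its genes with an adjusted p. In the limma fit 0 were called and 11 had an unadjusted p under 0.05, as had 8.59% of all genes tested. Their median difference was -0.24, against -0.0043 over all genes tested, and 19 of 24 were negative, as were 51.2% of all genes tested. Groups did not overlap and were lower in named Qk-KO for 12 of 24, and for 2.79% of all genes tested. The highest of the called genes, Csf1r, the receptor for the survival signal of microglia, was 18.20 in named Qk-KO and 18.48 in named WT on average, with an authors' deposited log2 fold change of -0.28 (adjusted p = 0.00327). Sparc, a secreted matrix protein, was 15.27 in named Qk-KO and 15.82 in named WT, with an authors' deposited log2 fold change of -0.55 (adjusted p = 0.0441). Adgrg1, an adhesion G-protein coupled receptor, was 12.31 in named Qk-KO and 12.92 in named WT (log2 fold change -0.60, adjusted p = 0.000351 in the authors' deposited table). Gpr155, an integral membrane protein, was 12.02 in named Qk-KO and 12.39 in named WT (log2 fold change -0.38, adjusted p = 0.000366 in the authors' deposited table). Gpr34 and the transcription factor Sall1 completed the 6, at -0.49 and -0.39 there. Cst3, a protease inhibitor and an abundant microglial transcript, differed by -0.11 in limma and was not called.

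P2ry12, the purinergic receptor of resting microglia, named here after its values were seen, had 14.40, 12.09, 13.91 and 12.28 in named Qk-KO 1 to 4, against 14.88, 14.82, 14.99 and 14.96 in named WT 1 to 4. Its lowest libraries were thus named Qk-KO 2 and 4, the libraries that both name and genotype field call Qk-KO, whereas no member was lowest in either. With the 4 libraries whose name and field match, 2 in each named group, limma called 3 of 20942 genes tested. P2ry12 was among them and no member was. That subset holds the 2 libraries in which P2ry12 was seen to be lowest, so its call there restates that pattern. With all 8 libraries P2ry12 was not called (limma adjusted p = 0.462, authors' deposited adjusted p = 0.188). Which label is right was not tested.

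**Figure D5:**
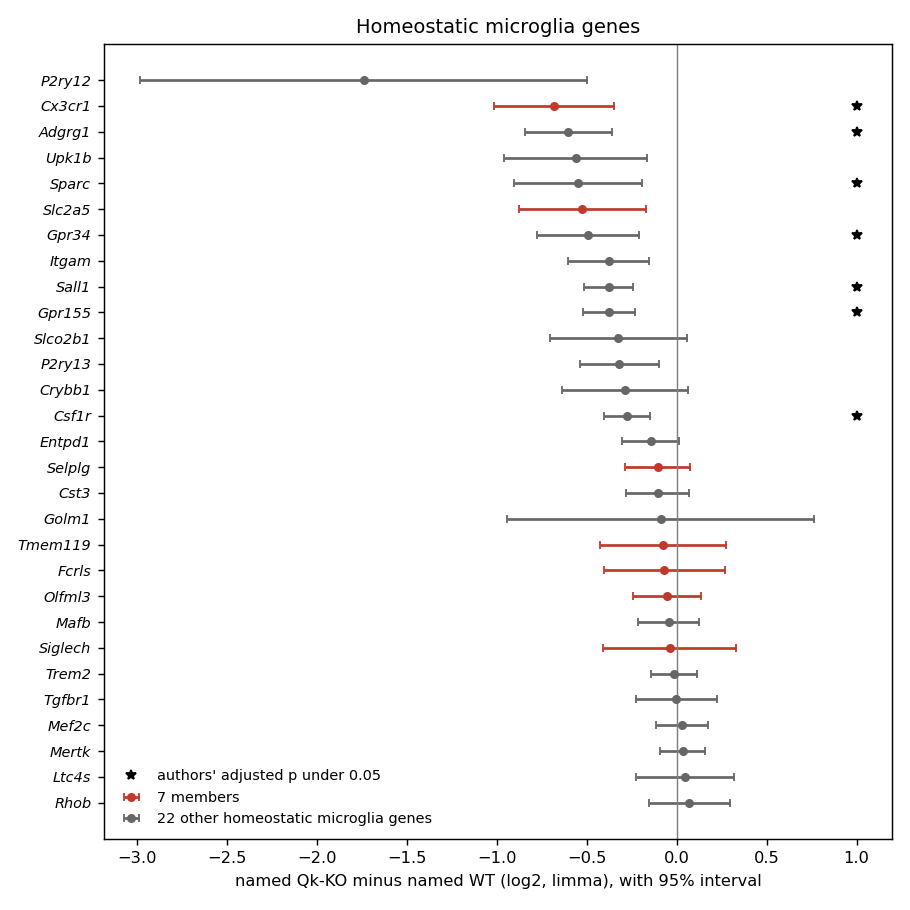
Limma difference of named Qk-KO minus named WT libraries (x axis, log2) with its 95% interval for the 7 members (red) and 22 of the 24 other homeostatic microglia genes (grey), with stars for an adjusted p under 0.05 in the authors' deposited table. Cx3cr1 (-0.68) and Slc2a5 (-0.52) lie among the lower values, of which some are called and some, such as P2ry12, are not, and the other 5 members lie between -0.11 and -0.040.

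Of 16 ligands, sheddases, adaptors and partners of the members, 15 were tested, and neither limma nor the authors' deposited table called any, with a median difference of 0.027. Tyrobp, the adaptor of Siglech, differed by 0.086, Gnai2, a G protein that couples to Cx3cr1, by -0.089, and Arrb2, an arrestin of such receptors, by 0.076 (limma). Cx3cl1, the ligand of Cx3cr1, was at 1.88 CPM. Of 11 other sugar transporters of the Slc2a family, 2 (Slc2a2 and Slc2a7) were listed at 0 and 0 were called. Slc2a1, the main glucose transporter, Slc2a6 and Slc2a8 differed by 0.010, 0.36 and -0.054 in limma, and none of these 3, the most abundant of its relatives, was called.

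Of 8 other Siglec genes 0 were called, and the most abundant, Cd33, Cd22 and Siglec1, differed by 0.12, -0.25 and -0.059. Of 5 Fc receptor-like genes, 3 were tested and 0 called, and Fcrl1, at 11.9 CPM the most abundant after Fcrls, differed by 0.17. Fcrlb and Fcrla were under 1 CPM. Of 7 other olfactomedin genes 0 were called, and Olfml2b, Olfm1 and Olfml2a differed by -0.084, -0.28 and -0.54. Of 13 other chemokine receptors, 12 were tested and 0 called, and Cxcr4 and Ccr2 differed by 0.51 and -0.17. Ccr2, the receptor of inflammatory monocytes, was at 9.48 CPM, against 1762 CPM for Cx3cr1.

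The genes most like each member across the 8 libraries were named by Pearson r among 8447 genes of at least 10 CPM, as a description of libraries that share scaling and depth. For Cx3cr1 they were Spns2, a sphingosine phosphate transporter, Sirt2, a deacetylase, and Rbm18 (r = 0.98 each). For Slc2a5 they were Cmtm4 (0.98), Gm16332 and Fez2 (0.97 each). For Tmem119 they were Slc40a1, the iron exporter ferroportin, Asb2 (0.98 each) and Pnp (0.97). For Selplg they were Glo1 (0.98), Emc10 and Anapc16 (0.97 each). For Siglech, Slc19a1, Trim14 and Stard3 reached 0.93, 0.93 and 0.91, for Olfml3, Alg12, Ganab and Mcts1 reached 0.94, 0.93 and 0.92, and for Fcrls, Pdcd4, Cct6a and Gtpbp4 reached 0.96, 0.95 and 0.93. No member was among the 3 genes most like another. Of these 21 genes, Sirt2 was called in the authors' deposited table, at a log2 fold change of -0.26 (adjusted p = 0.0336).

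Of 15 disease-associated microglia genes, the set that reactive microglia switch on, 1 (Gpnmb) was called higher and 0 lower in the authors' deposited table, where 0.551% of genes were called higher, and their median limma difference was 0.0069. Their summed level was 90626 to 115206 CPM in named Qk-KO and 88647 to 96611 CPM in named WT libraries. Most of that sum is Apoe, with a mean level of 70378 CPM, so it does not describe the set. Of the 15 differences, 7 were negative.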

How the data were processed

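Per the submitters' processing notes, the authors used FastQC, HISAT2, StringTie, DESeq2 and the build mm10. No source used here names versions or the annotation release. For each library the authors deposited 1 column of log2 values, which behave as regularized values, drawn towards the gene's mean where reads are few. Per the file headers, the table also holds the authors' mean signal, log2 fold change, test statistic (a score), p-value and adjusted p-value. Across 5232 genes with an authors' SE under 0.1, the authors' fold changes followed the sample names (r = 0.9997 across genes) and not the genotype field (0.046). Mean signal was turned into CPM by dividing by 56.79. CPM of single libraries was taken from the regularized values and is approximate.

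The table holds no count per library. Therefore limma 3.58.1 in R 4.3.3, with intensity trend and robust empirical Bayes, was fitted to the log2 values of all 20942 genes that had reads and reached a value of 1 in 4 or more libraries, with Benjamini-Hochberg adjustment over all of them and calls under 0.05. No pseudocount was added. The fit was tested on simulated data. Depth was estimated from genes with reads in 1 library, whose signal gave whole reads within 1% in 100% of cases. Gene structures come from GENCODE M21 (GRCm38), to which 98.9% of gene identifiers matched without their version. All members and lists were chosen with earlier results of these data known. Named from each list were the genes called in the authors' deposited table and the 3 of highest level (2 of these genes are not reported here), and for each member the 3 genes of highest r. Filters, scaling, moderation, genotype label, a replicate block and left-out libraries were varied.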

Additional observations from a re-analysis of the deposited data

Results flagged for a closer look

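In the named WT libraries, Cx3cr1 of named WT 4 stood apart from the other 3, at 17.32 on the regularized log2 scale, against 16.81, 16.73 and 16.71 in named WT 1 to 3. It was the 1 of 14 sets of 4 values (7 members in 2 named groups) with a gap that large relative to its range, and chance alone flags about 1 set in 20. Without named WT 4 the Cx3cr1 difference was -0.54, against -0.68 with all libraries.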

How the results depend on the processing

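Limma called 0 of 7 members under each alternative of its own fit that was run, against 1 (Cx3cr1) by the authors' deposited adjusted p. The number of genes called by limma, 1 as reported (C1qtnf5, named after its values were seen), was 0 at a minimum of 1 CPM, 3 in the 4 libraries whose name and genotype field match, 11 in the 4 in which they differ, 0 without both named Qk-KO 3 and named WT 4 (added after the data were seen) and 173 in the authors' deposited table. Leaving out 1 library at a time gave 0 to 7 (0 without named Qk-KO 3, 7 without named Qk-KO 4, 3 without named Qk-KO 2, likewise 3 without named WT 2, and 2 when named Qk-KO 1 was dropped). Members without overlap numbered 2 under both scalings. With 2 libraries a group they numbered 2 where the labels match and 4 where they differ, all lower, and 16.3% and 22.5% of all genes tested were lower without overlap in those 2 subsets. Leaving out libraries cannot lower this count. Of 19 alternatives, 14 could move a member's difference. Cx3cr1, Slc2a5 and Selplg were negative in these 14, with Cx3cr1 from -0.81 to -0.45, Slc2a5 from -0.65 to -0.34 and Selplg from -0.19 to -0.0091. Signs turned for Tmem119 (0.12), Siglech (0.044) and Fcrls (0.077) in the libraries whose labels match, for Olfml3 (0.0078) where they differ, and for Tmem119 (0.090), Siglech (0.016) and Olfml3 (0.037) without both libraries. With 1 library left out, Tmem119 ranged from -0.23 to 0.040, Siglech from -0.17 to 0.081 and Fcrls from -0.16 to 0.068. The cause was not tested. With a replicate block limma called 1 gene and 0 members (2842 genes at an unadjusted p under 0.05, against 1798 without it; Cx3cr1 SE 0.095 and adjusted p 0.148). The numbers were not taken as pairs, since r of same-numbered deviations was 0.046, 0.15, 0.25 and 0.46 for numbers 1 to 4 and not over 0.1 in each. Named Qk-KO 2, 3 and 4, but not 1, correlated best with the named WT library of their number, a hint from the data and not from the design. Median centring and quantile normalization moved the median of all genes by under 0.1 and turned no member's sign, but quantile normalization moved 5 differences by over 1.5 times, Olfml3 to -0.12, Fcrls to -0.14, Tmem119 to -0.14, Siglech to -0.065 and Selplg to -0.17. The number of libraries and the shrinkage of the deposited values limit what differences could be shown.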
